A study of Homo sapiens with 4 samples.

Results

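HRNR and DMBT1 are genes of epithelial proteins built from tandem repeats, and both carried several listed m5C peaks. The members are the 13 peaks, of 8919 in both deposited lists, that overlap the gene by 1 bp or more on its own strand in the hg19 build. HRNR is a minus-strand gene at chr1:152184558-152196672, and DMBT1 a plus-strand gene at chr10:124320181-124403252. The genes were selected on the positions of these same peaks, so the number, position, width and score of their peaks are a description, and no test is given. The samples are PANC-1 cells, an established human pancreatic cancer line, that had been exposed to extracellular vesicles (Evs) from cancer-associated fibroblasts (CAFs). Of 4 libraries, 2 were immunoprecipitated with an antibody to m5C (5-methylcytosine, a methylated RNA base) and 2 were inputs with no antibody, and each pair of the same replicate number gave 1 peak list. All 4 share the vesicle treatment, and no library without vesicles was analysed here, so nothing below is an effect of the vesicles. The labels do not say whether the replicates were separate cultures.

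HRNR encodes hornerin, a member of the S100 fused-type family with filaggrin (FLG), repetin (RPTN) and trichohyalin (TCHH). These proteins join a short calcium-binding S100 domain to a long stretch of repeats and are known from the cornified envelope of the epidermis. In HRNR the repeats are coded by a single large terminal exon. DMBT1 encodes a secreted glycoprotein of mucosal surfaces and glands, in which scavenger receptor cysteine-rich (SRCR) domains follow each other in series, ahead of CUB and zona pellucida domains. Its SRCR domains are coded by repeated exons with introns between them. Repeats of this kind are alike in sequence, so a short read may match several copies. How the authors placed such reads is not given in the sources used here, and its part in the results below was not tested. No sequence is shown, because no genome of the hg19 build was used here.

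In replicate 1, HRNR held 5 m5C peaks and DMBT1 held 6, of 3177 in the list. In replicate 2, HRNR held 2 peaks and DMBT1 held 0, of 5742. HRNR therefore had peaks in both replicates and DMBT1 in replicate 1 only. Of all replicate 1 peaks, only 13.6% overlapped a replicate 2 peak, so most had no counterpart at their position. Read depth is unknown for every library, and the lists hold only peaks that passed the authors' selection, so the missing DMBT1 peaks are not evidence that m5C was absent there. In neither list did any further peak, on either strand, lie within 100 kb of either gene. Of the 6980 clusters made by joining same-strand peaks of both lists over at most 10 kb, 32.9% had no other peak within 100 kb. That share was measured from cluster edges and not from gene ends, so it is not a like measure. The DMBT1 cluster is not among those 32.9%, because the first peak of the gene lies 12.7 kb from the next. The nearest listed peaks around HRNR lay 373.3 kb and 288.0 kb from the gene's lower and upper end in replicate 1. In replicate 2 these distances were 373.6 kb and 1136 kb. Around DMBT1 they were 3502 kb and 492.4 kb in replicate 1, and 318.7 kb and 1365 kb in replicate 2. In RefSeq gene order (GRCh38.p14, used for names only) the protein-coding neighbours of HRNR are RPTN and FLG, its own relatives, and those of DMBT1 are HTRA1 and SPADH. The S100 fused-type and SRCR families could not be counted gene by gene, since no hg19 annotation was used here.

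The 5 HRNR peaks of replicate 1 are described from the 3' end of the gene, which is its lower coordinate. The first, chr1:152186665-152186864, was 200 bp wide with a score of 3100. The second, chr1:152188075-152188301, was 227 bp wide and also scored 3100. Both lay in the 3' part of the gene, 9.81 kb and 8.37 kb from its 5' end. The third, chr1:152188751-152188950, was 200 bp wide and scored 2745.83. The fourth, chr1:152189485-152189684, was again 200 bp wide but scored 108.02, the lowest of the gene in either list. The fifth, chr1:152190152-152190360, was 209 bp wide and scored 3100. All 5 lay between 52.1% and 81.0% of the way from the 5' to the 3' end of the gene, measured to the nearer edge of each peak. The 2 HRNR peaks of replicate 2 lay at 62.2% and 85.4%, the latter beyond every replicate 1 peak. The first of them, chr1:152186003-152186322, was 320 bp wide and scored 173.47, and was the listed peak nearest to the 3' end, at 1.45 kb. The second, chr1:152188821-152189142, was 322 bp wide and scored 764.31. Peaks covered 1036 bp of the 12.1 kb gene (8.55%) in replicate 1 and 642 bp (5.3%) in replicate 2.

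**Figure D1:**
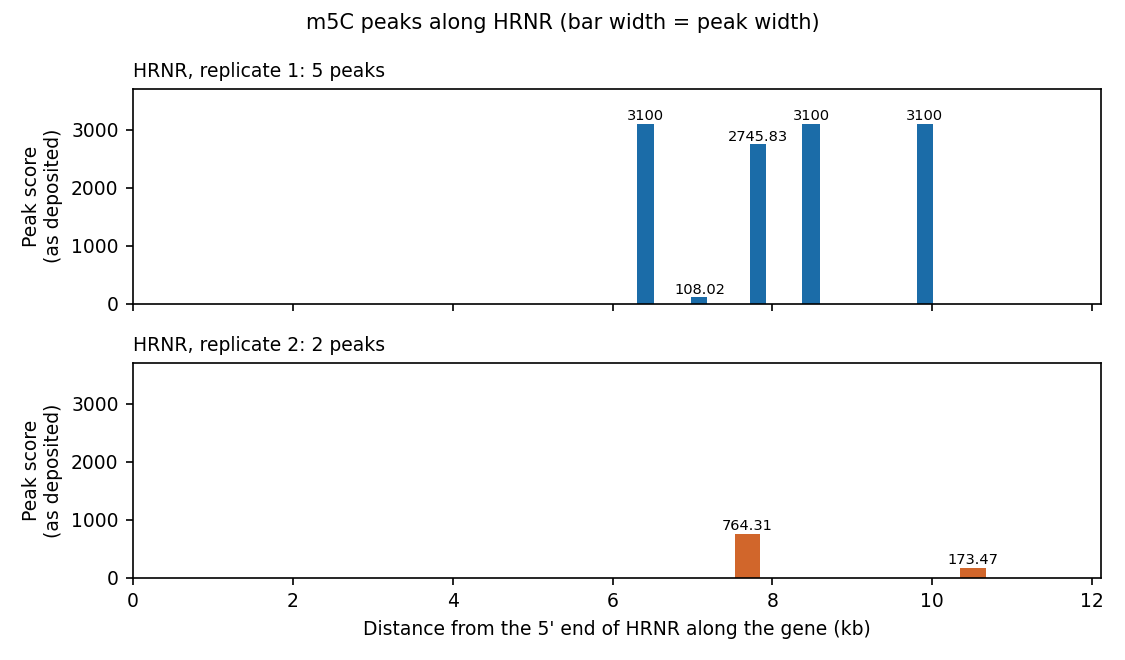
Deposited m5C peak scores along HRNR, with the distance from the gene's 5' end in kb on the horizontal axis and the peak score on the vertical axis, for replicate 1 (top, 5 peaks) and replicate 2 (bottom, 2 peaks). Bars are as wide as the peaks. All 7 peaks lie in the 3' part of the gene, and replicate 1 holds 3 of score 3100, whereas the higher replicate 2 peak scores 764.31.

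Position by position, the replicates shared 1 HRNR region. The third peak of replicate 1 and the second peak of replicate 2 overlapped over 130 bp, which is 65.0% of the replicate 1 peak and 40.4% of the replicate 2 peak. So 1 of 5 replicate 1 peaks was found in replicate 2, beside 13.6% of all replicate 1 peaks, and 1 of 2 replicate 2 peaks was found in replicate 1, beside 7.49% of that whole list. The centres of the overlapping peaks were 131 bp apart, and the overlap was not counted when a reciprocal overlap of 50% or centres within 100 bp were required. No DMBT1 peak was shared.

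The HRNR peaks recurred at a fixed step along the gene. In replicate 1 the first, the second and the fourth peak began exactly 1410 bp apart, and this was the most frequent distance between the starts of any pair. Their ends were 1437 bp and 1383 bp apart, as the second peak is 27 bp wider than the first and the fourth. The third and the fifth peak began 1401 bp apart and ended exactly 1410 bp apart. In replicate 2 the ends of the 2 peaks were 2820 bp apart, which is exactly 2 steps, and their starts 2818 bp apart. A step of 1410 bp has the length of 470 codons, a whole number. The DMBT1 step described below, 4059 bp, is also divisible by 3 (1353), and nothing is read from this about either gene. HRNR is 8.59 steps long with its introns. The protein sequence was not used here, so the step was not set against the repeat length of hornerin.

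Of the 10 pairs of HRNR peaks in replicate 1, 3 had starts within 5 bp of a multiple of the step. The pair at 2820 bp follows from the 2 pairs at 1410 bp. Among all 319 same-strand pairs of replicate 1 up to 5 kb apart, 3 were at such a distance (0.94%), and all 3 were the HRNR pairs. The single HRNR pair of replicate 2 was also within 5 bp, beside 1.1% of 547 pairs in that list. The step was read from the replicate 1 starts, so the replicate 1 counts describe it and do not test it. The replicate 2 pair did not set the step. The gene was chosen from the peaks of both lists, however, so that pair is no test either.

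Folding the gene on this step placed the 7 peaks in 2 groups of positions. With the start of the first replicate 1 peak as offset 0 and offsets increasing with genome coordinate, 3 replicate 1 peaks covered offsets 0 to 227. The other 2 replicate 1 peaks covered offsets 667 to 876, and both replicate 2 peaks covered offsets 746 to 1068. No peak of either list covered the 440 bp between the groups or the 342 bp after the second. After folding, each replicate 2 peak overlapped both replicate 1 peaks of the second group, by 128 to 130 bp, and neither overlapped the first group. Of the 10 combinations of a replicate 1 and a replicate 2 peak, 1 overlapped in the genome and 4 overlapped after folding. The step was read from the replicate 1 peaks, and in the second group each list's peaks lie whole steps apart, to within 9 bp. The further overlaps after folding thus follow from the 1 in the genome and add no agreement between the replicates. Copies at equal offset did not all have a peak. The first group was listed in 3 successive stretches, always in replicate 1. The second group was listed in the stretch before these in replicate 2, in the second of them in both replicates and in the third in replicate 1. In the first of the 3 stretches, neither list had a peak at these offsets.

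**Figure D2:**
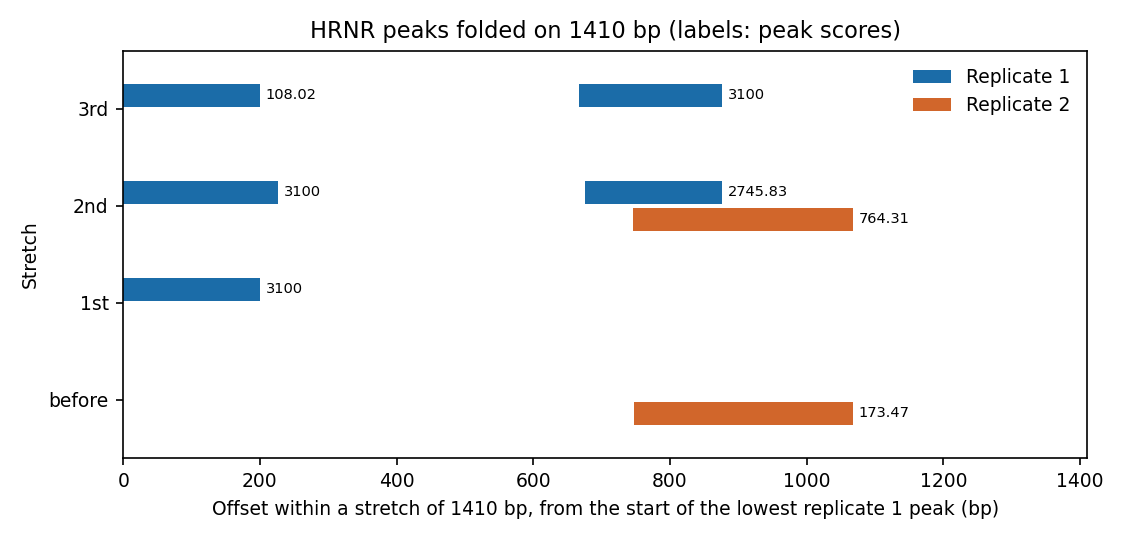
HRNR peaks folded on the 1410 bp step, with the offset within the step in bp on the horizontal axis, increasing with genome coordinate (towards the 5' end of the gene), and successive stretches of the gene on the vertical axis. Bars are peaks to scale, coloured by replicate and labelled with their scores. Replicate 1 peaks begin at offset 0 in 3 stretches, and both replicate 2 peaks span offsets from 746 or 748 to 1068, where they overlap the second group of replicate 1.

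Scores differed between peaks at equal offset. In the first group the replicate 1 scores were 3100, 3100 and 108.02, and in the second group they were 2745.83 and 3100. Replicate 2 scored 173.47 and 764.31 at its 2 copies of the second group.

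DMBT1 peaks were much narrower than those of HRNR. The first from the 5' end, chr10:124342401-124342439, was 39 bp wide and scored 156.06. The second, chr10:124355104-124355142, was also 39 bp wide but scored 3100. The 4 that followed were each 30 bp wide. They were chr10:124362616-124362645, chr10:124366675-124366704 and chr10:124370734-124370763, each with a score of 3100, and chr10:124374793-124374822, with 2737.61. The 6 peaks lay 22.2 to 54.6 kb from the 5' end of the 83.1 kb gene, in its middle part, and covered 198 bp in all (0.238%). Whether they lie in exons or introns was not determined, as no hg19 annotation was used. All 6 were under 50 bp, beside 13.1% of replicate 1 peaks, and none of the 5 HRNR peaks was. Of the 5 pairs of neighbouring DMBT1 peaks, 4 had equal widths, beside 6.44% of the 481 same-strand neighbours of replicate 1 with starts up to 20 kb apart.

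**Figure D3:**
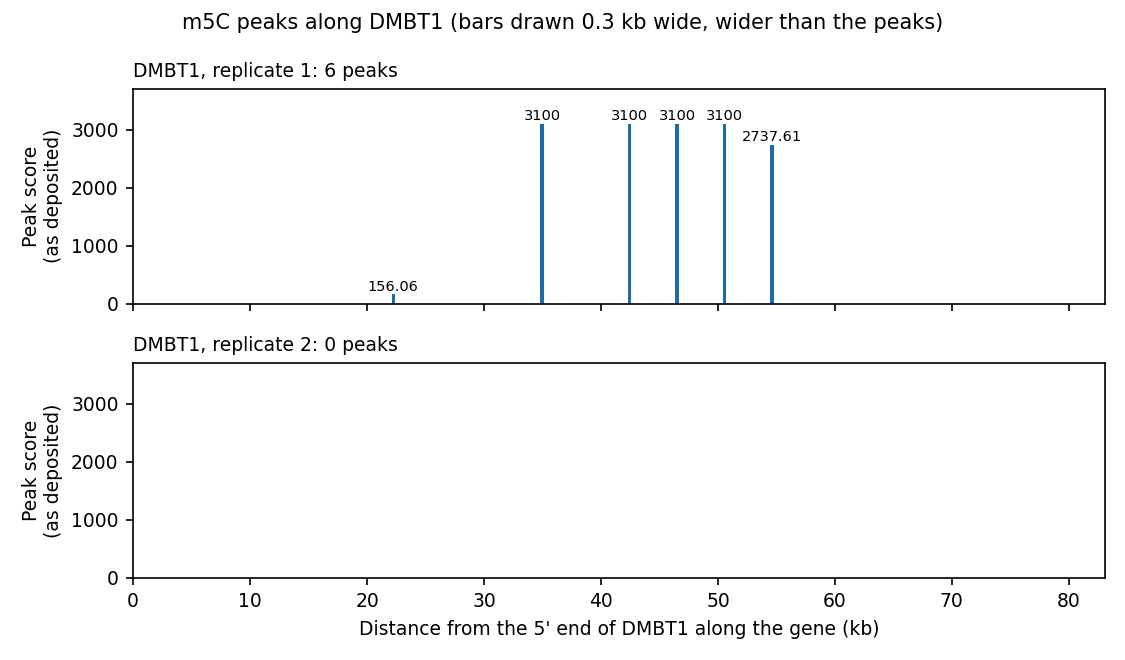
Deposited m5C peak scores along DMBT1, with the distance from the gene's 5' end in kb on the horizontal axis and the peak score on the vertical axis, for replicate 1 (top, 6 peaks) and replicate 2 (bottom, 0 peaks). Bars are drawn 0.3 kb wide to be visible, wider than the peaks of 30 to 39 bp. The 4 rightmost peaks are evenly spaced, and the peak nearest the 5' end is the lowest, at 156.06.

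The 4 peaks of 30 bp formed an exact series. Each began, and ended, 4059 bp after the one before, so the outermost were 12177 bp apart, or 3 steps. All 6 pairs among them were at an exact multiple of 4059 bp, out of 15 pairs of DMBT1 peaks. Of the 847 same-strand pairs of replicate 1 up to 35 kb apart, 7 (0.826%) were within 5 bp of such a multiple, 6 of them these pairs. The 6 pairs follow from the 3 equal steps. As this step too was read from the peaks themselves, the counts describe it and do not test it. The 39 bp peaks stood outside the series. They were 12703 bp from each other, and the second was 7512 bp from the first peak of the series, start to start. The first 39 bp peak was 20215 bp from the series, which is 80 bp short of 5 steps, and the second was 606 bp short of 2 steps.

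Among runs of successive peaks, spacing equal to the base was found only in the DMBT1 series. Of 111 runs of 3 successive same-strand peaks in replicate 1, with starts up to 20 kb apart, 2 (1.8%) had equal spacing to the base. Both were overlapping runs of the 1 DMBT1 series. Of 245 such runs in replicate 2, 0 did. The 3 equally spaced HRNR peaks are not counted here, because another HRNR peak lies between the last of them and the one before. Any other series interrupted in this way would be missed too, so the count does not show how rare even spacing was. The unit differed between the genes: the HRNR step was 1410 bp and the DMBT1 step 4059 bp.

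The scores have no stated scale. The numerically highest score of replicate 2, 3233.06, and that of replicate 1, 3228.29, equal −10 log10 of 1 and 3 times the smallest positive number that a double-precision computer value can hold. These are the values that −10 log10 of a p-value would take at its numerical limit, and such a score grows with depth as well as with enrichment. The commonest score, 3100, was shared by 1638 replicate 1 peaks and 36 replicate 2 peaks, so it does not order the peaks that carry it. No source used here says what 3100 stands for. If it was written where the p-value was too small to be held, peaks at 3100 would rank above those at 3228.29 and 3233.06, and the files do not settle this. In replicate 1, 3 of 5 HRNR peaks and 4 of 6 DMBT1 peaks scored 3100, beside 52.1% of the whole list at 3100 or more. In replicate 2, 0 of 2 HRNR peaks did, beside 0.679% of that list. These shares are near those of the lists, and nothing is read from them about the genes.

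Below 3100 the members fell at both ends of the replicate 1 range. Among its 1522 peaks under 3100, the HRNR peak of 2745.83 was ranked 73 from the top and the DMBT1 peak of 2737.61 was ranked 78. The HRNR peak of 108.02 exceeded 18.3% of those 1522 peaks, and the DMBT1 peak of 156.06 exceeded 22.5%. Of the whole replicate 1 list, the peaks of 2745.83 and 2737.61 each exceeded 45.5%. Those of 108.02 and 156.06 exceeded 8.75% and 10.8% of it. In replicate 2 the HRNR peak of 764.31 exceeded 83.8% of the list and that of 173.47 exceeded 32.3%.

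**Figure D4:**
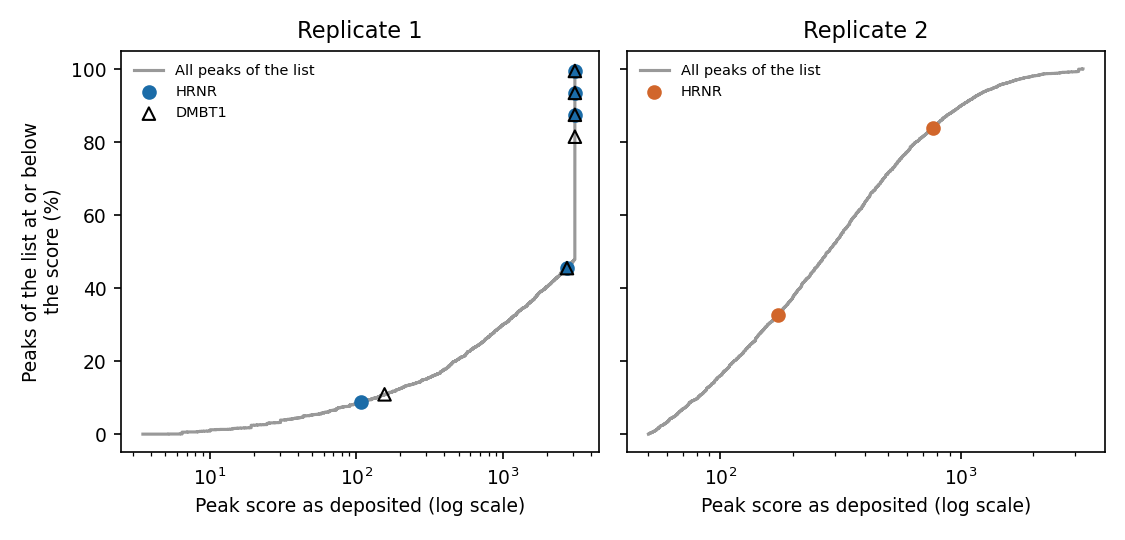
Share of the peaks of each list (%) at or below a given deposited score, on a logarithmic score axis, for replicate 1 (left) and replicate 2 (right). Lines show all 3177 and 5742 peaks, filled circles HRNR and open triangles DMBT1; symbols at 3100 are spread down the vertical step only to separate them. In replicate 1, 7 of the 11 members sit at 3100, and the others lie at 108.02, 156.06, 2737.61 and 2745.83.

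Peak names carry numbers that increase along the genome. The highest was 35902 in replicate 1, whose list holds 8.85% of these numbers, and 123960 in replicate 2, whose list holds 4.63%. Between the first and last listed peak of each gene no number was skipped. The HRNR peaks were numbered 1942 to 1946 in replicate 1 and 6647 to 6648 in replicate 2, and the DMBT1 peaks 4609 to 4614. All 4 neighbouring pairs of HRNR and all 5 of DMBT1 in replicate 1 thus had consecutive numbers, beside 21.6% of 3153 neighbouring pairs of the list. The 1 pair of replicate 2 did too, beside 11.0% of 5718. Both shares take in successive listed peaks of a chromosome at any distance and on either strand. The pairs within the genes have gaps of at most 12.7 kb, so these shares are not a like background for them. Further out, 6 numbers around the HRNR peaks in replicate 1, 53 in replicate 2 and 68 around the DMBT1 peaks in replicate 1 were not listed before the next listed peak on either side. For DMBT1 in replicate 2, the listed peaks on either side were 1.77 Mb apart and 88 numbers between them were not listed. Some of these unlisted peaks could have lain inside the genes, and the files do not say where they were.

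The same clusters gave the regions most like each gene in number of peaks per list and in span. Each gene was entered with all its peaks, DMBT1 with 6 over 32.4 kb, although its first peak lies 12.7 kb from the next and would fall outside its cluster. Of 33 clusters with 5 or more peaks, the nearest to HRNR was chr19:40728224-40732597 (minus strand), with 3 and 2 peaks over 4.37 kb. Next were chr5:1085347-1089243 (minus strand), with 2 and 3 peaks, and chr17:41142946-41152119 (plus strand), with 3 and 3. Between the lists, these clusters held 2, 1 and 2 overlapping pairs of peaks, beside 1 in HRNR, so such sharing was not particular to HRNR. The nearest to DMBT1 was chr1:145318054-145356009 (plus strand), with 5 and 1 peaks over 38.0 kb, and its 5 replicate 1 peaks were all 34 bp wide. The next nearest to DMBT1, chr17:73645870-73658739 and chr14:105406168-105418539 (both minus strand), held 5 replicate 1 peaks and 0 of replicate 2 each. With DMBT1 entered as its cluster of 5 peaks over 19.7 kb, an alternative chosen after the data were seen, the order changed, and chr17:73645870-73658739 (minus strand, 12.9 kb) was the nearest of the same 3. In none of the 6 clusters compared, 3 for each gene, did any distance between peak starts of 1 list occur more than once. The clusters nearest to HRNR held only 2 or 3 peaks per list, beside 5 HRNR peaks in replicate 1. A list of 2 peaks has a single distance, which cannot recur, and 3 peaks leave little room for it. Nothing is therefore concluded about repeated spacing in regions like HRNR. For DMBT1 the comparison rests on the 5 replicate 1 peaks of each cluster.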

How the data were processed

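Each deposited list has 6 columns (chromosome, start, end, peak name, score, strand). The authors deposited 1 score per peak, with no stated unit. Per the submitters' processing notes, reads were trimmed with cutadapt 1.9.3 and the build was hg19. Peak names begin with MACS, a peak caller, per the file contents. The aligner, the caller settings and the placing of reads with several matches were not given in the sources used here. Per the labels, each list belongs to 1 immunoprecipitated and 1 input sample, so peaks were not made on pooled replicates. Depth is unknown.

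Starts were read as 0-based and printed 1-based. Overlaps (1 bp or more, same strand), distances, folding and ranks were obtained with numpy 2.4.6 and pandas 2.3.3 under Python 3.11.15, and drawn with matplotlib 3.10.9. Overlap and spacing code was tested on simulated data and against bedtools 2.31.1. Gene windows came with the choice of genes. The members, lists and rules were chosen with earlier results of these data known. Named are both genes with every peak, and for each the 3 clusters of 5 or more peaks nearest by Euclidean distance over log2(peaks + 1) of each list and log2(span in kb + 1). The planned comparison with the repeat length of the protein was left out, since no protein sequence was used here. Each step was read from the starts of the replicate 1 peaks. No count model or test was used.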

Additional observations from a re-analysis of the deposited data

How the results depend on the processing

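Counts of peaks did not change with windows extended by 5 kb or with both strands counted. At or above the median score of each list, HRNR kept 3 peaks in replicate 1 and 1 in replicate 2, and DMBT1 kept 4 in replicate 1. With peaks of 50 bp or more, DMBT1 kept 0 and HRNR lost none. The 1 overlapping HRNR pair became 0 with a reciprocal overlap of 50% and with centres within 100 bp. It also became 0 with the median score filter, which removed its replicate 1 peak of 2745.83. Merged over both lists, HRNR had 6 regions and DMBT1 6. Leaving out each replicate in turn gave 2 to 5 for HRNR and 0 to 6 for DMBT1, so DMBT1 rests on replicate 1 alone. Over both lists, 4 pairs of HRNR starts lay within 5 bp of a multiple of its step, 3 with ends or midpoints, and, as alternatives chosen after the data were seen, 3 at the exact distance and 5 within 20 bp. For DMBT1 the count was 6 under all of these. No paired analysis was possible because no result comes from a test.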
